A study of Mus musculus with 15 samples.

Results

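The genes described here are 7 genes of the aryl hydrocarbon receptor (AhR) pathway, chosen by symbol out of the 53465 genes of the count table: Ahr, Arnt, Ahrr, Tiparp, Cyp1a1, Cyp1b1 and Cyp2s1. AhR is a transcription factor that rests in the cytosol in a complex with chaperones and is activated by small molecules, among them dietary compounds, pollutants such as dioxin and products of tryptophan breakdown. The activated receptor enters the nucleus, pairs with ARNT and binds DNA at the xenobiotic response element, whose core letters are GCGTG. Its best known targets are the cytochrome P450 genes that oxidize such ligands, and a pair of feedback repressors, AHRR and TIPARP, which dampen the receptor. In macrophages the pathway is known for its part in the handling of inflammatory signals.

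RNA was sequenced from bone marrow-derived macrophages (BMDMs), which are cells grown out of mouse bone marrow with the growth factor M-CSF (20 ng/ml, 7 days, in medium with 10% FBS). The donor mice were 8 to 12 weeks old. The 5 groups of 3 libraries each were left without added cytokine (control) or received, for 24 h, IL-4 at 10 ng/ml, IL-4 at 10 ng/ml plus IL-6 at 40 ng/ml (IL-4+IL-6), IL-13 at 40 ng/ml, or IL-13 at 40 ng/ml plus IL-6 at 40 ng/ml (IL-6+IL-13). No group received IL-6 alone, so an effect of IL-6 was measured on top of IL-4 or of IL-13 only.

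Summed counts were between 17001352 and 18918686 per library. The 8 macrophage markers were present in all 5 groups, with a summed level of 18934.7 to 21113.5 CPM per library in control, 14308.5 to 14779.7 with IL-4 alone, 10899.9 to 12703.6 in IL-4+IL-6, 17050.9 to 19799.8 in IL-13 and 13928.2 to 14819.7 in IL-6+IL-13, where CPM is the count per 1e6 counts of the library (total scaled by TMM factors). The sum was carried mainly by Lyz2, while the single markers went both ways. IL-4 gave 1 of the 8 higher and 5 lower than control (32.1% and 35.9% of all tested genes). IL-13 gave 3 higher and 3 lower than control (29% and 31.1%). IL-6 gave 3 higher and 5 lower on top of IL-4 (20.7% and 18.7% of all tested genes). On top of IL-13 it gave 3 higher and 2 lower (12.1% and 13.5%). Adgre1 and Fcgr1 were higher and Lyz2 and Csf1r lower in both IL-6 comparisons. Markers of most other cells stood out in the control libraries. The 6 T and NK cell markers did not: their summed level was 0.417 to 1.07 CPM in control, 0.375 to 0.443 in IL-4 and 0.103 to 0.75 in IL-13. It was 0 in IL-4+IL-6 and 0 to 0.174 in IL-6+IL-13. The summed level of 8 granulocyte and precursor markers was 460.2 to 546.8 CPM in the control libraries and 0.979 to 2.14 CPM in all other libraries. The summed level of 6 stromal cell markers was 16.7 to 21.5 CPM in control and 0 to 0.482 CPM elsewhere, that of 6 dendritic cell markers 23.4 to 26.8 CPM and 0.282 to 1.18 CPM, that of 5 B cell markers 10.8 to 12.3 CPM and 0.567 to 1.66 CPM, and that of 6 basophil and mast cell markers 5.11 to 5.99 CPM and 0 to 0.236 CPM, with Mcpt4 and Tpsb2 at 0 in every library. Apart from that of the T and NK cell markers, these summed levels therefore moved with every comparison against control. Their part in the members' results was not tested. Zbtb46, of the dendritic list, differed less: its mean was 0.739 CPM in control, 0.509 in IL-4, 0.614 in IL-4+IL-6, 0.143 in IL-13 and 0.186 in IL-6+IL-13. The ranges for the libraries outside control cover IL-4 and IL-13 with and without IL-6. Of the 6 megakaryocyte and erythroid markers, Itga2b was at 114.0 ± 7.01 CPM in control and at means of 1.47 to 1.72 elsewhere, and Gp9 at 9.87 ± 1.66 CPM in control and at means of at most 0.142 elsewhere. Pf4 was at 97.4 ± 8.26 CPM in control and rose with IL-6 from 68.7 ± 2.63 to 234.8 ± 69.9 CPM on top of IL-4 and from 75.5 ± 9.42 to 390.1 ± 40.7 CPM on top of IL-13 (SD, n = 3). The macrophage markers and Pf4 moved with the IL-6 comparisons too, and the T and NK cell sum fell with IL-6 on top of IL-4. Their part in those comparisons was not tested either. IL-13 replicate 1 and IL-4+IL-6 replicate 2 stood apart from their groups: the mean chi-square per gene was 17.1 and 22.4 between the first of them and its replicates and 26.4 and 46.7 for the other, against 2.68 to 4.1 between control or IL-4 replicates, and list counts that moved most without them are given beside the result. In such bulk samples, fewer cells of a type and less RNA per cell cannot be told apart.

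The promoters of 6 of the 7 genes were matched in RefSeq (GRCm38.p6), as windows from 250 bases before to 50 bases after the start. Those of the feedback repressors Ahrr and Tiparp and of the P450 genes Cyp1b1 and Cyp2s1, the receptor's downstream genes that were detected here, are printed to show where the core letters lie within these windows. Sites outside the windows were not searched. They read 5′ to 3′ along the gene, with GCGTG, or its reverse complement CACGC, in capitals. The windows lie at chr13:74292282-74292581 (minus strand, Ahrr), chr3:65528197-65528496 (plus strand, Tiparp), chr17:79715012-79715311 (minus strand, Cyp1b1) and chr7:25816476-25816775 (minus strand, Cyp2s1).
Ahrr: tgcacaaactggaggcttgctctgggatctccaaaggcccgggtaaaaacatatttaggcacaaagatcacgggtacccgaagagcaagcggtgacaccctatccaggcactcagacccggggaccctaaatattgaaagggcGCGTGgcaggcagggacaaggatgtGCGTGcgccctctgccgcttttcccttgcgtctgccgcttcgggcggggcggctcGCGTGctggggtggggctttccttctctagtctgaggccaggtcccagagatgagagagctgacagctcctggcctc
Tiparp: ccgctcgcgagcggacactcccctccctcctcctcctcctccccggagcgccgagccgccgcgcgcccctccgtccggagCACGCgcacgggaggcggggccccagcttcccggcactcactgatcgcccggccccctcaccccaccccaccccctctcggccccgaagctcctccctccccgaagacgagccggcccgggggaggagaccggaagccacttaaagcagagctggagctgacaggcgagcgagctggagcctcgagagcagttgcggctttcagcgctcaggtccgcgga
Cyp1b1: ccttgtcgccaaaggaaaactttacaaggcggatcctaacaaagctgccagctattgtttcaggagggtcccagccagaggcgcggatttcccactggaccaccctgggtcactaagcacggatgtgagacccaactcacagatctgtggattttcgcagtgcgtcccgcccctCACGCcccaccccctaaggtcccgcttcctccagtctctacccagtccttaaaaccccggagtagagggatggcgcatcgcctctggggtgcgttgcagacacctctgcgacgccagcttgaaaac
Cyp2s1: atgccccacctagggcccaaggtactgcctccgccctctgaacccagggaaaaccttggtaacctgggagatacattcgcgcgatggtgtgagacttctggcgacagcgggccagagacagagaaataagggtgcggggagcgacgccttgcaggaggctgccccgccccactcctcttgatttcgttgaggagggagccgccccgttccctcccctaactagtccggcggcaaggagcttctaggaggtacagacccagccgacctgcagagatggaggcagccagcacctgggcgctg

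The Ahrr window held 3 GCGTG cores on the strand of the gene, which began 107, 82 and 27 bases upstream of the start. Both strands were searched, and 32.4% of 32851 promoter windows of the same length held at least 1 core, while 3.91% held 3 or more. The core nearest the Ahrr start was part of the longer match TNGCGTG, which overlaps the core and was found in 5.07% of windows. Tiparp had 1 core, 170 bases upstream on the opposite strand, and Cyp1b1 had 1 core, 76 bases upstream on the opposite strand. Arnt and Cyp1a1 each had 1 core on their own strand, 29 and 54 bases upstream, and Cyp2s1 had none. The letters TTCNNNGAA, a textbook form bound by STAT factors (which read the same on both strands, found in 8.3% of windows), were in none of these 6 windows. These matches describe the letters of the windows only.

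Levels are given as normalized CPM and differences as log2 fold changes with their standard error (SE), from edgeR's quasi-likelihood test fitted on all 15 libraries. A gene was called when its p-value, adjusted over all 13938 genes tested (Benjamini-Hochberg), was under 0.05, whatever the size of the change. Of the 7 members, 6 passed the filter on low counts, and Cyp1a1 did not. Ahr, Arnt, Ahrr and Tiparp were above the filter's cutoff of 0.547 CPM in all 15 libraries, Cyp2s1 in 9 and Cyp1b1 in 6, so the P450 genes passed only through the groups in which they were high, and counts and medians over the tested members are a description. For these P450 genes the p-value from the fit without a filter on low counts is given as well where a group lay under the cutoff.

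With IL-6 added to IL-4, 3 of the 6 tested members rose (Ahr, Arnt and Tiparp) and 2 fell (Cyp1b1 and Cyp2s1), where 20.7% of all tested genes rose and 18.7% fell. With IL-6 added to IL-13, the same 3 rose and 1 fell (Cyp2s1), where 12.1% of all tested genes rose and 13.5% fell. The median log2 fold change of the tested members was 0.22 and 0.40 in these comparisons, and that of all tested genes 0.04 and 0.01. IL-4 against control gave 1 member higher and 2 lower, and IL-13 against control 2 higher and 3 lower. In those comparisons 32.1% and 29% of all tested genes were higher and 35.9% and 31.1% lower, so a call by itself was common there. The members' median log2 fold change was -0.36 for IL-4 and -0.46 for IL-13, beside -0.05 and -0.02 over all tested genes.

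**Figure D1:**
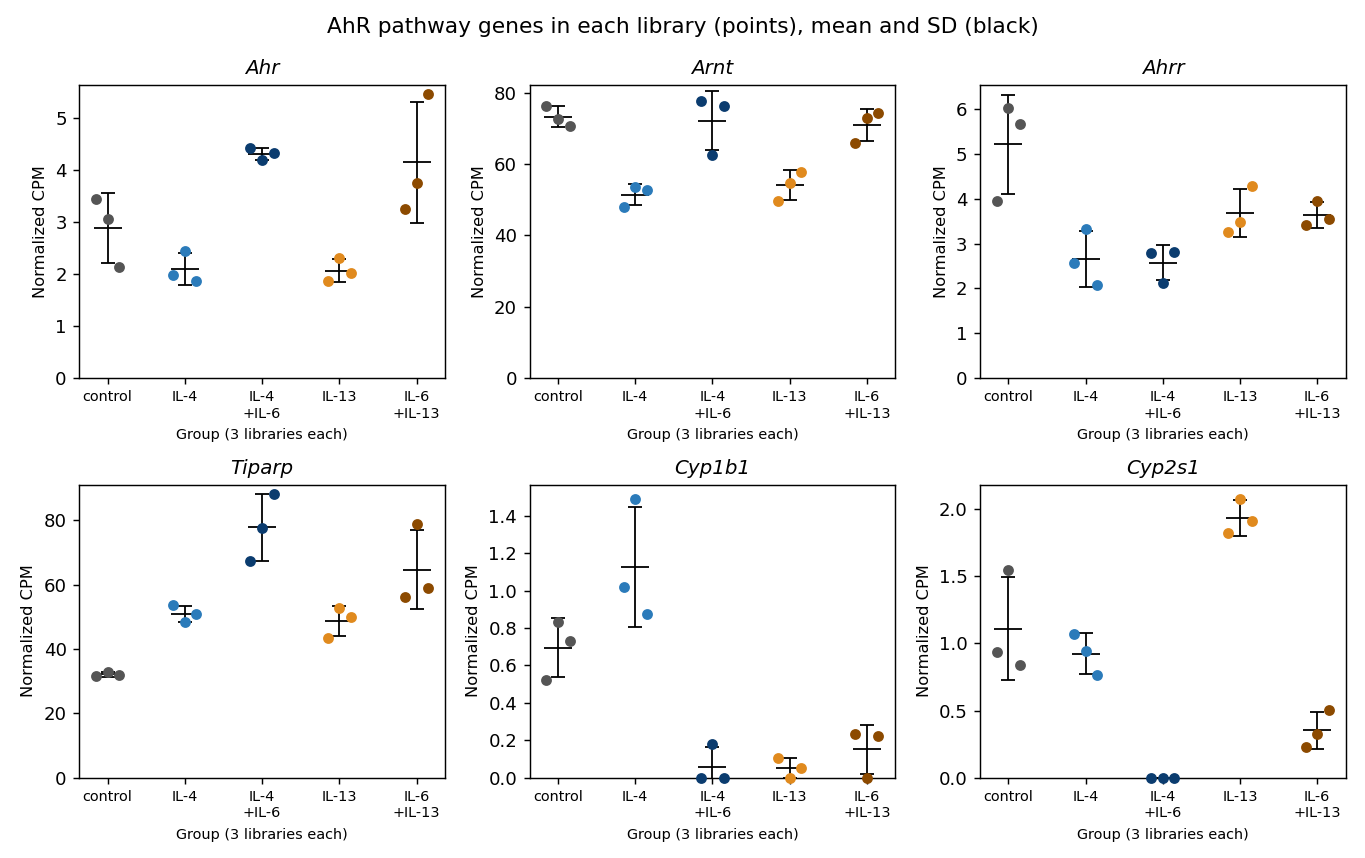
Normalized CPM (vertical axes, from 0) of 6 AhR pathway genes in the control, IL-4, IL-4+IL-6, IL-13 and IL-6+IL-13 groups. Points are the 3 libraries of a group, and black bars are the mean and SD. Ahr is highest in the groups with IL-6, Arnt is lowest in IL-4 and IL-13, and Cyp2s1 is at 0 in the 3 IL-4+IL-6 libraries.

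Ahr, the receptor itself (ENSMUSG00000019256, chr12:35497974-35535038, minus strand), was a low transcript that rose when IL-6 was added. Its level was 3.44, 3.05 and 2.13 CPM in the control libraries, 1.98, 2.44 and 1.86 CPM in IL-4, 4.42, 4.18 and 4.32 CPM in IL-4+IL-6, 1.87, 2.31 and 2.01 CPM in IL-13, and 3.24, 3.74 and 5.45 CPM in IL-6+IL-13. Every library with IL-6 was above every library with IL-4 or IL-13 alone. The log2 fold change was 1.04 (SE 0.221, edgeR adjusted p = 0.00106) for IL-6 on top of IL-4 and 1.01 (SE 0.222, edgeR adjusted p = 0.00231) for IL-6 on top of IL-13. These effects differed by 0.04 on the log2 scale (SE 0.316, edgeR adjusted p = 0.98). IL-4 alone and IL-13 alone were below control in the mean, by a log2 fold change of -0.46 (SE 0.229, edgeR adjusted p = 0.0846) and -0.48 (SE 0.229, edgeR adjusted p = 0.0807), but neither passed the test, and control replicate 3 lay among their libraries. Without that library the adjusted p-values from edgeR were 0.0278 and 0.0281. Against control, IL-4+IL-6 was higher by 0.58 (SE 0.213, edgeR adjusted p = 0.0215), a call that was lost without control replicate 3 (log2 fold change 0.40, edgeR adjusted p = 0.118). IL-6+IL-13 was higher by 0.53 (SE 0.213, edgeR adjusted p = 0.0395), a call that was lost under 8 of 22 alternatives, with adjusted p of 0.231 without IL-6+IL-13 replicate 3 and 0.18 without control replicate 3. Counts of Ahr were only 34 to 98 per library, which limits its precision.

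Arnt, the nuclear partner that AhR needs to bind DNA and that it shares with the hypoxia factors (ENSMUSG00000015522, chr3:95434388-95497240, plus strand), was lower with IL-4 or IL-13 and back at the control level with IL-6. It stood at 76.4, 72.8 and 70.6 CPM in control, 48.0, 53.7 and 52.7 CPM in IL-4, 77.8, 62.6 and 76.3 CPM in IL-4+IL-6, 49.6, 54.8 and 57.8 CPM in IL-13, and 65.9, 72.9 and 74.3 CPM in IL-6+IL-13. The libraries of IL-4 and of IL-13 were all below those of the other groups. Arnt fell by 0.51 on the log2 scale with IL-4 (SE 0.088, edgeR adjusted p = 7.37e-05) and by 0.44 with IL-13 (SE 0.0878, edgeR adjusted p = 0.000377). It rose by 0.49 when IL-6 was added to IL-4 (SE 0.0882, edgeR adjusted p = 0.000235) and by 0.39 when IL-6 was added to IL-13 (SE 0.0879, edgeR adjusted p = 0.00262). IL-4+IL-6 and IL-6+IL-13 differed from control by log2 fold changes of -0.02 and -0.04 (edgeR adjusted p = 0.843 and 0.669).

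Ahrr, the AhR repressor, which competes with the receptor for ARNT (ENSMUSG00000021575, chr13:74211118-74292331, minus strand), was highest in control and did not follow Ahr upward with IL-6. It stood at 3.96, 6.04 and 5.67 CPM in control, 2.57, 3.32 and 2.07 CPM in IL-4, 2.78, 2.12 and 2.82 CPM in IL-4+IL-6, 3.27, 3.49 and 4.28 CPM in IL-13, and 3.41, 3.96 and 3.56 CPM in IL-6+IL-13. Every library that received IL-4, with or without IL-6, lay below all control libraries, as did the IL-6+IL-13 libraries by a narrow margin, while the IL-13 libraries overlapped control. Ahrr fell by 0.97 on the log2 scale with IL-4 (SE 0.206, edgeR adjusted p = 0.000509) and by 1.01 with IL-4+IL-6 against control (edgeR adjusted p = 0.00033). The fall with IL-13 was 0.50 (SE 0.198, edgeR adjusted p = 0.0382) and that with IL-6+IL-13 was 0.51 (edgeR adjusted p = 0.0321), and these calls were lost under 10 and 5 of 22 alternatives. Without control replicate 2, their adjusted p-values were 0.168 and 0.14. IL-6 moved Ahrr by -0.04 on top of IL-4 (SE 0.223, edgeR adjusted p = 0.905) and by -0.01 on top of IL-13 (SE 0.205, edgeR adjusted p = 0.978). IL-4 and IL-13 themselves differed by -0.47 (SE 0.213, edgeR adjusted p = 0.162), so an order between them was not shown.

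Tiparp, a mono-ADP-ribosyltransferase that modifies AhR and shuts it down (ENSMUSG00000034640, chr3:65528410-65555518, plus strand), rose in each cytokine group and further with IL-6. It stood at 31.6, 32.9 and 31.8 CPM in control, 53.5, 48.4 and 50.8 CPM in IL-4, 67.3, 77.7 and 88.2 CPM in IL-4+IL-6, 43.4, 52.8 and 49.8 CPM in IL-13, and 56.1, 78.9 and 59.0 CPM in IL-6+IL-13. Control lay below all other libraries, and the libraries with IL-6 lay above all libraries with IL-4 or IL-13 alone. The log2 fold change over control was 0.66 with IL-4 (SE 0.122, edgeR adjusted p = 0.000132), 0.60 with IL-13 (SE 0.122, edgeR adjusted p = 0.000423), 1.28 with IL-4+IL-6 (edgeR adjusted p = 5.47e-08) and 1.01 with IL-6+IL-13 (edgeR adjusted p = 1.39e-06). IL-6 added 0.61 on top of IL-4 (SE 0.118, edgeR adjusted p = 0.000471) and 0.41 on top of IL-13 (SE 0.119, edgeR adjusted p = 0.016), and these effects differed by 0.20 (edgeR adjusted p = 0.621). The effect on top of IL-13 was not called without IL-13 replicate 1 (0.33, edgeR adjusted p = 0.0749) or without IL-6+IL-13 replicate 2 (0.24, edgeR adjusted p = 0.135). An annotated pseudogene transcript, 4931440P22Rik, overlaps exons of Tiparp on the opposite strand with 45 to 113 counts per library. Whether counting used strand is not given in the sources used here, so reads of the overlap cannot be assigned with certainty, against 567 to 1531 counts of Tiparp.

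**Figure D2:**
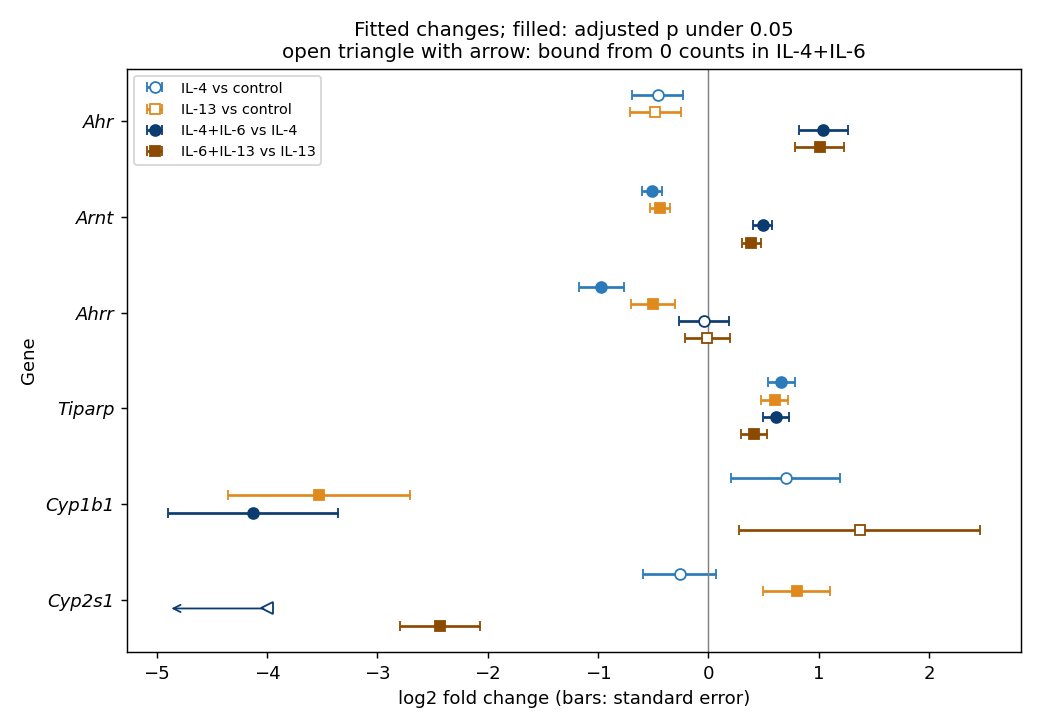
Fitted log2 fold changes (horizontal axis) of 6 AhR pathway genes in 4 comparisons, with standard errors as bars. Filled symbols passed the test and open ones did not, and the open triangle with an arrow is the bound for Cyp2s1 with IL-6 on top of IL-4. Ahr, Arnt and Tiparp lie right of 0 for IL-6 on top of either cytokine, while Ahrr lies near 0. The fitted values of Cyp1b1 rest on few counts and depend on the prior count.

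Because FPKM divides by gene length, it allows levels of different genes to be set side by side. In control, mean FPKM was 9.55 ± 0.408 for Arnt, 7.69 ± 0.105 for Tiparp, 0.577 ± 0.119 for Ahrr and 0.487 ± 0.114 for Ahr (SD, n = 3). The receptor thus had less transcript per length than its partner in every group, the highest mean FPKM of Ahr being 0.661 ± 0.0448 in IL-4+IL-6. The ratio of Ahr FPKM to Ahrr FPKM was 1.33, 0.773 and 0.576 in the control libraries, 1.18, 1.12 and 1.37 with IL-4 alone, 2.44, 3.02 and 2.34 in IL-4+IL-6, 0.879, 1.01 and 0.72 in IL-13, and 1.45, 1.45 and 2.35 in IL-6+IL-13. The mean ratio was 1.22 ± 0.129 with IL-4 alone, 2.60 ± 0.367 in IL-4+IL-6, 0.871 ± 0.147 with IL-13 alone and 1.75 ± 0.517 in IL-6+IL-13 (SD, n = 3). The libraries with IL-6 were all above those without, and the ratio was not tested, since it combines the values given above.

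**Figure D3:**
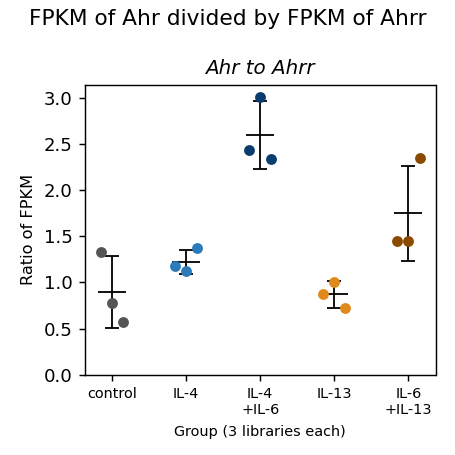
FPKM of Ahr divided by FPKM of Ahrr (vertical axis, from 0) in the 3 libraries of each group, shown as points, with mean and SD in black. The IL-4+IL-6 libraries lie between 2.34 and 3.02, above all libraries without IL-6.

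The P450 genes by which AhR activity is usually read were at or near the limit of detection. Cyp1a1, the classical target that oxidizes polycyclic aromatic hydrocarbons (ENSMUSG00000032315, chr9:57687928-57703824, plus strand), had 1 count in all 15 libraries together, in IL-13 replicate 2. In a group with 0 counts, a limit of 3 counts over the group allows up to 0.0545 CPM (control, and likewise IL-4), 0.0577 CPM (IL-4+IL-6) and 0.0559 CPM (IL-6+IL-13). These limits cover counting error only. A level well above these limits would be expected to give counts, while a change below them could not be measured.

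Cyp1b1, which oxidizes hydrocarbons and steroid hormones (ENSMUSG00000024087, chr17:79701537-79715061, minus strand), was detected in control and IL-4 and nearly lost in the other groups. Its counts were 10, 15 and 13 in control, 19, 27 and 16 with IL-4 alone, 0, 3 and 0 in IL-4+IL-6, 2, 0 and 1 in IL-13, and 4, 0 and 4 in IL-6+IL-13. The control and IL-4 libraries held more counts than all libraries of the other 3 groups. The mean was 0.694 ± 0.158 CPM in control and 1.13 ± 0.325 CPM in IL-4 (SD, n = 3), a ratio of 1.63 (counting interval 1.07 to 2.51, 95%) that the fit did not call (edgeR adjusted p = 0.217). Cyp1b1 was 21.0-fold higher in IL-4 than in IL-13 (counting interval 6.84 to 104.4, edgeR adjusted p = 0.00103, or 7.06e-07 without the filter), where 5.16% of all tested genes were higher and 7.61% lower. Against control, IL-13 was 12.8-fold lower (counting interval 4.08 to 65.0, edgeR adjusted p = 0.00139, or 5.63e-05 without the filter). With 1 library left out, the fitted log2 fold change ranged from 3.72 to 5.08 for IL-4 against IL-13 (4.23 with all libraries). For IL-13 against control it ranged from -4.34 to -3.01 (-3.53 with all libraries). IL-6 on top of IL-4 lowered Cyp1b1 19.5-fold (counting interval 6.37 to 97.1, edgeR adjusted p = 0.000324, or 3.69e-07 without the filter). All 3 counts of the IL-4+IL-6 group lay in replicate 2, so the size of this fold rests on that library: without it the group was at 0 counts, and the fitted log2 fold change, which then depends on the prior count, went from -4.13 to -7.38 (edgeR adjusted p = 0.000109). On top of IL-13, which left only 3 counts, the ratio was 2.77 upward (counting interval 0.666 to 16.2, edgeR adjusted p = 0.42), and a fall could not have been measured. Against control, IL-4+IL-6 was 12-fold lower (counting interval 3.79 to 60.5, edgeR adjusted p = 0.00136, or 7.32e-05 without the filter) and IL-6+IL-13 4.63-fold lower (counting interval 2.13 to 11.5, edgeR adjusted p = 0.011, or 0.0058 without the filter). With 1 library left out, the fitted log2 fold change of IL-4+IL-6 against control, -3.43, ranged from -6.64 to -2.87. The summed stromal markers stood at 16.7 to 21.5 CPM in control and 0 to 0.332 CPM in IL-4, and their part in the level of Cyp1b1 was not tested.

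Cyp2s1, a P450 of epithelia and macrophages that is also inducible through AhR (ENSMUSG00000040703, chr7:25802475-25816913, minus strand), was lost when IL-6 joined IL-4 and fell when IL-6 joined IL-13. Its counts were 18, 28 and 15 in control, 20, 17 and 14 with IL-4 alone, 0, 0 and 0 in IL-4+IL-6, 34, 37 and 37 in IL-13, and 4, 6 and 9 in IL-6+IL-13. The IL-13 libraries were the highest, and the libraries with IL-6 were below all others. IL-4+IL-6 was at least 16-fold lower than IL-4 (edgeR adjusted p = 6.39e-06, or 3.99e-11 without the filter) and at least 19.2-fold lower than control (edgeR adjusted p = 1.03e-06, or 8.21e-13 without the filter), both taken against 3 counts over the group. With IL-6 on top of IL-13 the mean went from 1.94 ± 0.134 to 0.353 ± 0.137 CPM (SD, n = 3), which is 5.47-fold lower (counting interval 3.34 to 9.43, edgeR adjusted p = 0.000101, or 5.24e-07 without the filter). IL-6+IL-13 was also below control, by a log2 fold change of -1.63 (SE 0.384, edgeR adjusted p = 0.0017, or 0.00256 without the filter). IL-13 was above control by 0.80 (SE 0.303, edgeR adjusted p = 0.0333) and IL-4 below IL-13 by a log2 fold change of -1.06 (SE 0.31, edgeR adjusted p = 0.036), and these calls were lost under 6 and 7 of 21 alternatives. Without control replicate 3, the IL-13 effect had an adjusted p of 0.121, and without IL-4 replicate 3, the difference between the cytokines had an adjusted p of 0.139. IL-4 against control gave -0.26 (SE 0.329, edgeR adjusted p = 0.499).

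The test of the difference between the IL-6 effect with IL-4 and that with IL-13 passed the threshold for Cyp1b1 (edgeR adjusted p = 0.0221) and Cyp2s1 (edgeR adjusted p = 0.0239), beside 4.42% of all tested genes lower with IL-4 and 3.22% higher. Nothing is read from these calls, since groups at the limit of detection set the difference (3 counts of Cyp1b1 in IL-13 and 0 of Cyp2s1 in IL-4+IL-6). Both calls could also be lost by leaving out 1 library: that of Cyp1b1 was lost without IL-6+IL-13 replicate 1 or 3 (edgeR adjusted p = 0.104 for each), and that of Cyp2s1 without any single IL-4+IL-6 library or without IL-6+IL-13 replicate 3 (edgeR adjusted p = 0.0505 to 0.0668). With 1 library left out, the fitted difference ranged from -8.74 to -4.97 for Cyp1b1 and from -4.88 to -4.32 for Cyp2s1. Against control, IL-4+IL-6 gave 2 members higher and 3 lower (35.4% and 37.5% of all tested genes), and IL-6+IL-13 also 2 higher and 3 lower (31.9% and 32.1%). IL-4 against IL-13 gave 1 higher, Cyp1b1, and 1 lower, Cyp2s1 (5.16% and 7.61%).

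Among the 94 cytochrome P450 genes of the annotation, 57 had no count in any library and 16 could be tested. IL-4 gave 3 of the 16 higher and 8 lower than control (32.1% and 35.9% of all tested genes), and IL-13 gave 4 higher and 9 lower (29% and 31.1%). IL-6 gave 2 higher and 6 lower on top of IL-4 (20.7% and 18.7%) and 1 higher and 6 lower on top of IL-13 (12.1% and 13.5%). Some of the 16, such as Cyp39a1, passed the filter only through control, so these counts are a description, and without IL-13 replicate 1 the last of them were 0 higher and 4 lower of 17 tested. The median log2 fold change of the 16 was -0.50, -0.98, -0.28 and -0.18 in this order. Cyp27a1, the sterol 27-hydroxylase of macrophages, went from 52.9 ± 2.01 CPM in control to 11.9 ± 1.62 CPM in IL-4 and 5.61 ± 0.911 CPM in IL-4+IL-6, and to 13.8 ± 2.57 CPM in IL-13 and 8.16 ± 0.405 CPM in IL-6+IL-13 (SD, n = 3). It fell with IL-6 by 1.09 on the log2 scale on top of IL-4 and by 0.76 on top of IL-13 (edgeR adjusted p = 1.22e-05 and 0.000456). Cyp4f18, which hydroxylates leukotriene B4 and is abundant in neutrophils, went from 21.7 ± 2.06 CPM in control to 1.33 ± 0.225 in IL-4 and 1.86 ± 0.243 in IL-13, and fell with IL-6 to 0.366 ± 0.119 and 0.465 ± 0.0765 CPM (edgeR adjusted p = 5.11e-05 and 1.04e-05), although it belongs to a family of near copies among which reads can be split. The groups with IL-6 lay under the filter's cutoff of 0.547 CPM. Cyp4f18 passed the filter through the other groups, and its p-values without it are not given here. Cyp39a1, an oxysterol hydroxylase, had 50 to 65 counts per control library and 0 to 8 in all others. In the fit without a filter its fall had an edgeR adjusted p of 1.65e-13 with IL-4 and 9.5e-11 with IL-13. The P450 gene of highest FPKM was Cyp4v3 in control (35.5) and Cyp20a1 in the other groups (19.3 in IL-4, 28.6 in IL-4+IL-6, 18.9 in IL-13 and 21.3 in IL-6+IL-13). By mean FPKM, Cyp2s1 ranked 10 and Cyp1b1 23 of the 94 in IL-13, and Cyp2s1 ranked 12 and Cyp1b1 11 in IL-4.

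Among the 10 genes that hold AhR in the cytosol or turn it over, all tested, 6 were higher and 2 lower with IL-4 (median log2 fold change 0.92) and 7 higher and 2 lower with IL-13 (0.71), where 32.1% and 29% of all tested genes were higher and 35.9% and 31.1% lower. With IL-6, 2 were higher and 0 lower on top of IL-4 by edgeR (median 0.14; 20.7% and 18.7% of all tested genes), where 4 had an unadjusted p under 0.05 and DESeq2 called 3. On top of IL-13 edgeR called 0 (median 0.07; 12.1% and 13.5%), 0 had an unadjusted p under 0.05 and DESeq2 called 0, while 1 was called higher without IL-13 replicate 1. Hsp90aa1, the inducible HSP90 chaperone, went from 230.2 ± 6.52 CPM in control to 562.7 ± 13.4 in IL-4 and 534.4 ± 11.1 in IL-13 (SD, n = 3). Ptges3, the p23 co-chaperone, rose by 1.04 and 0.92 on the log2 scale (edgeR adjusted p = 3.8e-09 and 2.67e-08), and Tbl3 rose by 1.28 and 1.01 (edgeR adjusted p = 7.43e-09 and 1.95e-07). Src, the tyrosine kinase found with the complex, went the other way, from 12.4 ± 0.899 CPM to 2.27 ± 0.482 in IL-4 and 2.33 ± 0.0252 in IL-13 (edgeR adjusted p = 5.82e-09 and 9.13e-09).

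Of 11 coactivators and corepressors of AhR and ARNT, all tested, 10 fell with IL-4 and the same 10 with IL-13 (median log2 fold change -0.79 and -0.50), where 35.9% and 31.1% of all tested genes fell. IL-6 gave 1 higher and 1 lower on top of each (median -0.03 and 0.02), beside 20.7% and 18.7% of all tested genes with IL-4 and 12.1% and 13.5% with IL-13. The count with IL-13 rested in part on IL-13 replicate 1: without it 6 of the 10 stayed called (median -0.35), while the 10 with IL-4 all did. Without IL-4+IL-6 replicate 2 there were 2 higher on top of IL-4, and Relb, the gene higher on top of IL-13, was no longer called. In IL-13 replicate 1 Ep300 was at 90 CPM, against 138.2 and 128.3 CPM in the other IL-13 libraries. Ep300, the histone acetyltransferase p300, went from 199.4 ± 12.5 CPM to 86.5 ± 6.01 in IL-4 and 118.9 ± 25.5 in IL-13 (SD, n = 3). Nrip1, a corepressor of nuclear receptors, fell by 1.29 and 0.89 on the log2 scale (edgeR adjusted p = 1.86e-07 and 1.45e-05). Relb, the NF-kappaB subunit that can pair with AhR, fell by 1.06 and 0.68 (edgeR adjusted p = 3e-08 and 6.96e-06). Ncoa3, a steroid receptor coactivator, fell by 0.98 and 0.61 (edgeR adjusted p = 4.51e-06 and 0.000697) and rose by 0.56 with IL-6 on top of IL-4 (edgeR adjusted p = 0.00242), with a wide spread in IL-4+IL-6 (220.1 ± 51.8 CPM).

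Of the 13 other bHLH-PAS genes, the family of transcription factors that AhR, ARNT and the hypoxia and clock factors belong to, 8 were tested and 3 had no count. IL-6 on top of IL-4 gave 3 higher (Hif1a, Epas1 and Clock) and 2 lower (Npas2 and Npas4), and IL-6 on top of IL-13 gave these same genes in the same directions, with a median log2 fold change of -0.25 and 0.06. Over all tested genes 20.7% were higher and 18.7% lower in the first of these comparisons and 12.1% and 13.5% in the other. Without IL-13 replicate 1, Hif1a and Clock were no longer called for IL-6 on top of IL-13, which left 1 higher and 2 lower. IL-4 gave 4 lower (median -0.27; 35.9% of all tested genes), and IL-13 gave 1 higher and 1 lower (median -0.14; 29% and 31.1%). Npas4, an activity-regulated factor, was at 2.50 ± 0.303 CPM with IL-4 alone, 0.486 ± 0.357 in IL-4+IL-6, 2.07 ± 0.144 with IL-13 alone and 0.535 ± 0.264 in IL-6+IL-13 (SD, n = 3). It fell by 2.36 and 1.93 on the log2 scale (edgeR adjusted p = 8.15e-05 and 0.000869). Npas2, a CLOCK relative, went from 3.86 ± 0.413 CPM in control to 0.965 ± 0.449 in IL-4 and 1.36 ± 0.0278 in IL-13, and fell by a further 1.54 and 1.42 on the log2 scale with IL-6 (edgeR adjusted p = 0.00485 and 0.00493 for IL-6). Its means with IL-6 were 0.325 and 0.503 CPM. Npas4 and Npas2 both had means under the filter's cutoff of 0.547 CPM in the groups with IL-6. They passed the filter through the groups in which they were high, and their p-values without it are not given here. Arntl2, a relative of ARNT in the clock, was higher with IL-13 by 1.62 (SE 0.616, edgeR adjusted p = 0.0316, or 0.0174 without the filter). Its counts were 9 to 15 per IL-13 library and 10, 1 and 1 in control, so that the groups overlapped. Among the control libraries only replicate 1 reached the filter's cutoff. Npas1 was lower with IL-4 by a log2 fold change of -0.86 (edgeR adjusted p = 0.03), a call lost without the filter (edgeR adjusted p = 0.0993).

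Of 16 other genes known as AhR targets, 7 were tested and 5 had no count. IL-4 gave 2 higher and 4 lower than control (median log2 fold change -0.51), IL-13 gave 2 higher and 3 lower (-0.60), and IL-6 gave 2 higher and 2 lower on top of IL-4 (-0.04) and 3 higher and 2 lower on top of IL-13 (0.09). The shares of all tested genes in this order were 32.1% and 35.9%, 29% and 31.1%, 20.7% and 18.7%, and 12.1% and 13.5%. Without IL-13 replicate 1, IL-6 gave 2 higher and 1 lower on top of IL-13. Nqo1, the quinone reductase, and Nfe2l2, the oxidative stress factor NRF2, were the genes lower with IL-6 in both comparisons (Nqo1 was not called on top of IL-13 without IL-13 replicate 1), and Xdh, xanthine dehydrogenase, was the gene higher in both. Slc7a5, an amino acid transporter that brings in tryptophan and kynurenine, stood at 4.60 ± 0.634 CPM in control, 45.3 ± 2.34 in IL-4, 65.4 ± 6.73 in IL-4+IL-6, 36.8 ± 1.09 in IL-13 and 39.0 ± 2.01 in IL-6+IL-13 (SD, n = 3). Its log2 fold change was 3.29 with IL-4 and 2.99 with IL-13 (edgeR adjusted p = 1.07e-13 and 6.66e-13). Fosl2, an AP-1 subunit, rose from 41.0 ± 2.08 CPM to 145.7 ± 4.98 in IL-4 and 78.6 ± 11.7 in IL-13. Serpinb2, a plasminogen activator inhibitor, fell with both from 17 to 32 counts per library to 1 to 10 (edgeR adjusted p = 0.00345 and 0.00392, or 3.04e-05 and 2.71e-05 without the filter, which it passed in these comparisons only through control). Ugt1a6a, a glucuronidating enzyme whose exons are shared with other Ugt1a genes and whose value is therefore uncertain, fell with IL-4 by 1.71 (edgeR adjusted p = 0.00281).

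Tryptophan breakdown makes AhR ligands. Of 15 genes of its synthesis steps and transport, 8 were tested and 1 had no count. IL-4 gave 2 higher and 4 lower (median log2 fold change -0.80) and IL-13 gave 2 higher and 5 lower (-0.76), beside 32.1% higher and 35.9% lower of all tested genes with IL-4 and 29% and 31.1% with IL-13. IL-6 gave 3 higher on top of IL-4 (0.31) and 4 higher on top of IL-13 (0.23), beside 20.7% and 12.1% of all tested genes. Kmo, which hydroxylates kynurenine, went from 4.84 ± 0.734 CPM in control to 0.326 ± 0.272 in IL-4 and 0.374 ± 0.156 in IL-13, and was at 1.48 ± 0.377 in IL-4+IL-6 and 2.03 ± 0.678 in IL-6+IL-13 (SD, n = 3). Its rise with IL-6 was 2.16 (SE 0.474, edgeR adjusted p = 0.00142) on top of IL-4 and 2.41 (SE 0.44, edgeR adjusted p = 0.000451) on top of IL-13, and every library with IL-6 was above every library of the matching cytokine alone. With IL-4 or IL-13 alone its mean lay under the filter's cutoff of 0.547 CPM. Kmo passed the filter through the other groups, and its p-values without it are not given here. Kynu, kynureninase, had 66 to 116 counts per control library and 0 to 4 in all other libraries. Afmid, a further enzyme of the pathway, fell by 1.52 on the log2 scale with IL-4 and by 1.01 with IL-13 (edgeR adjusted p = 0.00029 and 0.00594). Haao, another, had 22 to 34 counts per control library and 1 to 9 in all others, and like Kynu it passed the filter only through control. In the fit without a filter its fall had an edgeR adjusted p of 2.55e-05 with IL-4 and 0.00221 with IL-13. The enzymes that start this pathway or make indole ligands were barely seen: Ido1 had 0 to 3 counts per library and Il4i1 0 to 7. Lower values than in control for this list came in the same comparisons as the lower levels of other cells' markers described above. A link between them was not tested.

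**Figure D4:**
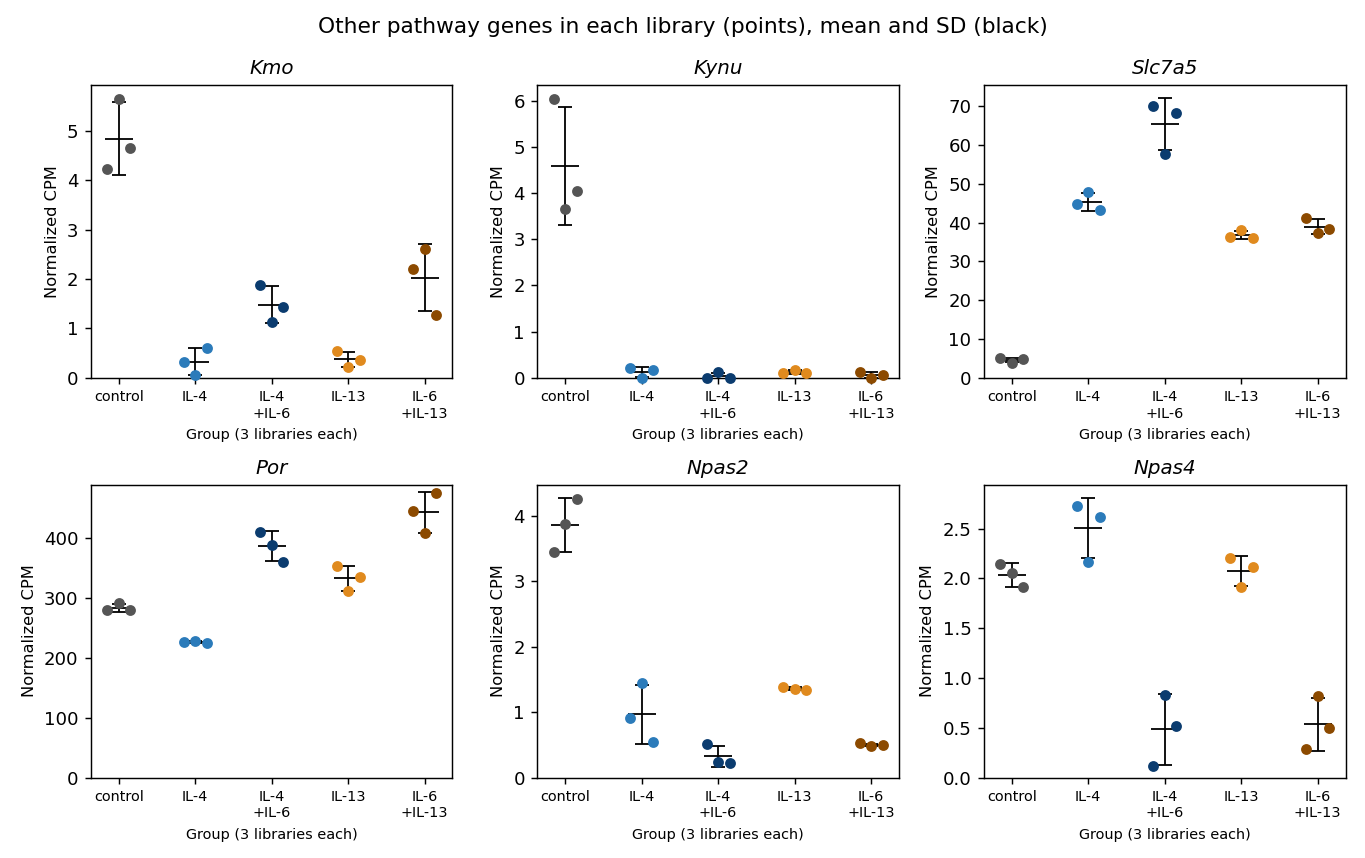
Normalized CPM (vertical axes, from 0) of 6 further genes of the AhR pathway in the 5 groups, with the 3 libraries of each as points and the mean and SD in black. Kmo, Kynu and Slc7a5 part control from the cytokine groups, while Por and Kmo are higher, and Npas2 and Npas4 lower, with IL-6 than with the matching cytokine alone.

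All 7 genes listed as electron donors or partners of P450 enzymes were tested. IL-4 gave 4 higher and 1 lower (median log2 fold change 0.36) and IL-13 gave 5 higher (0.32), where 32.1% and 29% of all tested genes were higher and 35.9% and 31.1% lower. IL-6 gave 2 higher and 1 lower on top of each cytokine (-0.12 and -0.10), where 20.7% and 12.1% were higher and 18.7% and 13.5% lower. On top of IL-4 there were 3 lower without IL-13 replicate 1 or without IL-4+IL-6 replicate 2. Por, the reductase that supplies electrons to the microsomal P450 enzymes, stood at 283.2 ± 6.57 CPM in control, 226.7 ± 1.42 in IL-4, 386.1 ± 24.6 in IL-4+IL-6, 332.8 ± 21.1 in IL-13 and 442.4 ± 33.8 in IL-6+IL-13 (SD, n = 3). It rose by 0.77 (SE 0.0687, edgeR adjusted p = 7.51e-08) with IL-6 on top of IL-4 and by 0.41 (SE 0.0682, edgeR adjusted p = 0.000177) on top of IL-13, in the comparisons in which Cyp2s1 fell. Pgrmc1, a heme-binding partner of P450 enzymes, fell by 0.60 and 0.40 in the same comparisons (edgeR adjusted p = 2.99e-05 and 0.00218). Fdxr, the mitochondrial ferredoxin reductase, rose by 0.88 and 0.67 with IL-4 and IL-13 (edgeR adjusted p = 1.64e-06 and 4.91e-05), and Cyb5r3, the cytochrome b5 reductase, by 0.55 and 0.36 (edgeR adjusted p = 1.05e-07 and 1.99e-05).

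The genes whose log2 CPM followed each member most closely over the 15 libraries were ranked by Pearson's r among tested genes with a mean of at least 5 normalized CPM. These r values describe libraries that share groups and culture, and no p is attached to them. For Ahr they were Tbc1d13 (0.912), Fgl2 (0.908) and Gbp7 (0.902), and for Arnt Kremen1 (0.970), Arhgef12 (0.954) and Dnm2 (0.949). For Ahrr they were Zbtb4 (0.919), Hivep2 (0.918) and Fbxo46 (0.917), and for Tiparp Bzw1 (0.971), Rbm28 (0.953) and Fn1 (0.952). For Cyp2s1 they were Esyt1 (0.985), Alcam (0.980) and Cadm1 (0.979), and for Cyp1b1, with its low counts, Stx6 (0.872), Cebpa (0.858) and Clec4a3 (0.854).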

How the data were processed

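RNA of 15 BMDM libraries (5 groups of 3) was sequenced by a service company. The genotype of the donor mice, the same in all groups, is not reported here. The authors deposited a matrix of unnormalized counts for 53465 Ensembl identifiers and one FPKM table per library with 26080 genes. Each FPKM value had been computed by the authors from the count, the gene's length and the library total. Over 268061 values, the implied lengths agreed between libraries to a relative 7.35e-07. The submitters' processing notes name GRCm38, CASAVA, Bowtie2 2.2.3, HISAT2 2.1.0, TopHat2 and DESeq2 without their roles, and strand use is not given in the sources used here. How multiply mapped reads were counted could move genes with near copies.

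The tests used edgeR 4.0.16 (R 4.3.3) on these counts: filterByExpr (minimum count 10), TMM factors, and the quasi-likelihood F-test (glmQLFit, glmQLFTest) in one fit of all 15 libraries without covariates, with Benjamini-Hochberg adjustment over 13938 genes. SE is the one implied by the F statistic. A limit of 3 counts over a group was used for groups at 0, and ratios of summed counts, scaled by library size, have exact 95% Clopper-Pearson intervals, which cover counting error only. The scripts were tested on simulated data. Depth was 17001352 to 18918686 counts per library. The labels do not say whether replicates came from separate animals, so p-values measure only the spread between these samples. Coordinates are from GENCODE M21 (GRCm38).

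The members, gene lists and tests were chosen with earlier results of these data known, so p-values are not independent evidence. Named were all members, up to 4 genes per list (the largest called log2 fold changes over the comparisons of IL-4 or IL-13 with control and of IL-6 on top of each, with more than 3 counts in a library of both groups), the 3 genes most alike each tested member, the P450 gene of highest FPKM per group, and Ido1 and Il4i1. Further genes named within a list's count (Hif1a, Epas1, Clock, Nqo1, Nfe2l2 and Xdh) and the markers Lyz2, Csf1r, Adgre1, Fcgr1, Zbtb46, Pf4, Itga2b, Gp9, Mcpt4 and Tpsb2 were chosen after their values were seen. Alternatives were upper-quartile and RLE factors, no filter, a minimum count of 50, a replicate block, fits of fewer groups, DESeq2 1.42.0 and leaving out each library. For the lists, leaving out IL-13 replicate 1 and IL-4+IL-6 replicate 2, each and together, and the values of Cyp39a1, Haao, Serpinb2, Arntl2 and Npas1 without a filter, were chosen after seeing the data.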

Additional observations from a re-analysis of the deposited data

Results flagged for a closer look

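The test by edgeR of the difference between the effect of IL-6 on top of IL-4 and that on top of IL-13 (in log2 fold change, IL-4 minus IL-13, adjusted over all genes tested) passed the threshold for 6 of the members and list genes named above. Over all tested genes 3.22% were higher and 4.42% lower in this test. List genes were named for large called changes, so the count is a description only. Cyp1b1 gave -5.50 (edgeR adjusted p = 0.0221) and Cyp2s1 gave -4.65 (edgeR adjusted p = 0.0239), fitted values that rest on groups with 0 to 9 counts per library and depend on the prior count, so that a difference between the IL-6 effects is not shown for either. Cyp1b1 had 3 counts left in IL-13 alone, against 62 in IL-4. Por gave 0.36 (SE 0.0964, edgeR adjusted p = 0.0293), Slc7a5 gave 0.44 (SE 0.124, edgeR adjusted p = 0.0353) and Cyp20a1, an orphan P450, gave 0.42 (SE 0.107, edgeR adjusted p = 0.0195), each with the larger rise on top of IL-4. Fosl2 gave -0.70 (SE 0.166, edgeR adjusted p = 0.0135): its log2 fold change with IL-6 was -0.04 on top of IL-4, where IL-4 alone had already brought it to 145.7 ± 4.98 CPM, and 0.65 on top of IL-13 (SD, n = 3). Of 16 alternatives (each library left out in turn, and no filter on low counts), the call was lost in 9 for Por, 13 for Slc7a5, 5 for Cyp20a1 and 0 for Fosl2, with highest edgeR adjusted p-values of 0.105, 0.124, 0.0929 and 0.0412. Without IL-13 replicate 1, which stood apart from its group, Por had 0.0782 and Slc7a5 0.0553. These alternatives were chosen after seeing the data.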

How the results depend on the processing

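Low counts set the limits here: Cyp1b1 and Cyp2s1 had at most 37 counts in any library, and the DESeq2 fit gave no adjusted p to Cyp1b1 in IL-4 against IL-13. Over 1054 values of single members under the alternatives, 977 kept direction and call, 45 lost the call, 2 gained it and 30 changed sign. The rises of Ahr, Arnt and Tiparp with IL-6 on top of IL-4, and those of Ahr and Arnt on top of IL-13, stayed called in all alternatives run.

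Counts of called members moved as follows. With a minimum count of 50, only Ahr, Ahrr, Arnt and Tiparp were tested, which left 1 higher in IL-13 against control, 0 lower for IL-6 on top of IL-4 and of IL-13 and in the test of their difference, 1 lower in IL-4+IL-6 and 1 higher and 1 lower in IL-6+IL-13 against control, and 0 and 0 in IL-4 against IL-13. IL-13 against control had 1 higher without a filter and with DESeq2, and 1 lower in the fit of these groups alone. IL-6+IL-13 against control had 1 higher with upper-quartile factors, the fit of these groups alone and DESeq2. IL-4 against IL-13 had 0 lower without a filter. The cause was not tested beyond the number of members tested. Leaving out 1 library gave 1 to 2 higher in IL-13, IL-4+IL-6 and IL-6+IL-13 against control, 2 to 3 lower in IL-4, IL-13 and IL-6+IL-13 against control, 2 to 3 higher for IL-6 on top of IL-13, 0 to 1 lower in IL-4 against IL-13, and 0 to 2 lower in the test of the difference, 0 without IL-6+IL-13 replicate 3.

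Same-numbered replicates did not deviate together (30 correlations between -0.276 and 0.163, 3 of them over 0.1). The replicate block left 1 higher in IL-6+IL-13 against control, where Ahr had 0.52 (edgeR adjusted p = 0.0577), and 0 lower in IL-4 against IL-13, where Cyp2s1 had -1.06 (edgeR adjusted p = 0.059). It changed no other member's call.

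All changes of sign were of values near 0 that were not called. Without a filter, Ahrr gave 0.00 for IL-6 on top of IL-13, Arnt gave 0.03 in IL-4+IL-6 and in IL-6+IL-13 against control, and the difference of the IL-6 effects on Ahr was -0.01, as with upper-quartile factors. Leaving out 1 library gave ranges of -0.41 to 0.06 for Cyp2s1 in IL-4 against control, -0.21 to 0.12 and -0.10 to 0.10 for Ahrr with IL-6 on top of IL-4 and of IL-13, -0.07 to 0.10 and -0.07 to 0.04 for Arnt in IL-4+IL-6 and IL-6+IL-13 against control, -0.10 to 0.10 for Ahr and 0.00 to 0.12 for Tiparp in IL-4 against IL-13, and -0.12 to 0.27 for Ahr and -0.19 to 0.15 for Ahrr in the difference of the IL-6 effects. Upper-quartile factors moved the share of higher among all called genes from 52.6% to 39% for IL-6 on top of IL-4 and from 42.2% to 31.7% in the test of the difference, which was 31.5% without a filter.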
